A study of Mus musculus with 8 samples.

Results

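Alveolar type 1 cells are the thin, flat epithelial cells across which gas exchange takes place in the lung. The genes described here are 10 that are widely used to recognise them: Ager, Hopx, Pdpn, Aqp5, Rtkn2, Clic5, Akap5, Gprc5a, Sema3e and Spock2. They were chosen by symbol, and all 10 were found among the 43432 mouse genes of the count table and passed the filter on low counts that left 14906 tested genes. RNA was sequenced in 8 libraries of lung cells sorted as EpCAM+CD45-, a gate for epithelium that leaves out leukocytes, from C57BL/6J mice aged 14 weeks. The wild-type group (WT, n = 3) took the whole gate. The groups heterozygous (C/+, n = 3) and homozygous (C/C, n = 2) for the ChiaRed allele took only the ChiaRed+ cells of it, ChiaRed being a reporter for cells that express acidic mammalian chitinase, the product of Chia1. WT therefore differed from the other groups in sorting as well as in genotype. Chia1 had mean levels of 382, 289 and 0.905 CPM (counts scaled to library size) in WT, C/+ and C/C, so C/C cells also lacked nearly all transcript of the marked gene. Whether each library is a separate animal is not stated in the labels, and p-values measure only the spread between these libraries. WT and C/+ each held libraries of both sexes, and so more than 1 animal, while the spread between the C/C libraries, both female, may be technical.

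Type 1 cells cover most of the alveolar surface, while the cuboidal type 2 cells make surfactant and can give rise to type 1 cells after injury. Type 1 identity depends on the transcription factor NKX2-1 and on the YAP and TAZ coactivators, which act through TEAD factors and are restrained by the Hippo kinases. Most of these marker genes are not exclusive to type 1 cells: podoplanin also marks mesothelium and lymphatic endothelium, aquaporin 5 is also made in airways and glands, and caveolin 1, a further common marker, is abundant in endothelium. In a bulk library of sorted cells, fewer cells of a type and less RNA per cell cannot be told apart.

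Total counts were 17057216 to 52319957 per library, and type 2 transcripts were abundant, with 12 type 2 markers summing to 221303 to 303408 CPM. Xist was read at 289 CPM or more in WT 1, C/+ 2, C/+ 3, C/C 1 and C/C 2, and Y-linked genes only in WT 2, WT 3 and C/+ 1 above 1 CPM, so these are called female and male libraries below, and no male library was in C/C. Endothelial markers other than Esam (11 genes) summed to 74.6 to 309 CPM in WT, 582 to 997 in C/+ and 56.7 to 64.2 in C/C. Esam was left out after its values were seen because it was abundant and level in all groups. With Esam the sums were 276 to 493 CPM in WT, 721 to 1193 in C/+ and 231 to 261 in C/C. Mesothelial markers (7 genes) summed to 8.87 to 31.6 CPM in WT, 67.4 to 200.1 in C/+ and 6.80 to 8.26 in C/C, lymphatic endothelial markers (6 genes) to 2.399 to 15.2, 23.0 to 31.4 and 2.45 to 2.57 (with Ccl21a at 0 in every library, and Prox1 and Reln at 0 in C/+ 3 and C/C 2). Ciliated cell markers (9 genes, without Tppp3) summed to 46.8 to 61.1, 24.6 to 66.6 and 14.0 to 16.1 CPM, and with Tppp3 to 137 to 213, 107 to 255 and 138 to 158. Tppp3 was left out after its values were seen, being abundant with like group means (125, 131 and 133 CPM). Within C/+ it ran from 82.5 to 189 CPM. Club cell markers (10 genes, without Cbr2 and Hp, likewise left out after their values were seen) summed to 451 to 1107, 5171 to 9723 and 482 to 711 CPM. With Cbr2 and Hp the sums were 5358 to 6755, 10573 to 15495 and 6500 to 6970 CPM. Hp itself had group means of 756, 1012 and 1106 CPM. The mean sum in C/C was above that in WT with these genes (6735 and 5973 CPM) and below it without them (596 and 685 CPM). Mitochondrial genes took 2.90% to 3.31% of counts in WT, 3.93% to 6.40% in C/+ and 4.92% to 6.67% in C/C. The part of these traits in the results below was not tested.

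The 250 bases before the transcription start in RefSeq (GRCm38.p6) are shown for Ager, the most abundant member, and for the members with a called change that the table lists, so that the regulatory sequence stands beside the levels. For Hopx, 1 of its 2 promoters is shown, because it holds a match. By symbol, 8 of the 10 genes matched the table, all but Rtkn2 and Gprc5a. The motifs searched were these, on both strands: GGAATG, bound by TEAD factors, CTTGAG, bound by NKX2-1, and TGANTCA, bound by AP-1. Capitals mark a match to any of them. The windows are chr17:34597600-34597849 on the plus strand for Ager, chr4:143299565-143299814 on the minus strand for Pdpn, chr17:44188322-44188571 on the plus strand for Clic5 and chr5:77115124-77115373 on the minus strand for Hopx.
Ager: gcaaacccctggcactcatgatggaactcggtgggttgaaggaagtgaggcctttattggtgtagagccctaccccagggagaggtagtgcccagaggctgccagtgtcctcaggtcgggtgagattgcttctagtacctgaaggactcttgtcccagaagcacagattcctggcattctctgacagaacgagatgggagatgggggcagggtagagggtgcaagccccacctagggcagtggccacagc
Pdpn: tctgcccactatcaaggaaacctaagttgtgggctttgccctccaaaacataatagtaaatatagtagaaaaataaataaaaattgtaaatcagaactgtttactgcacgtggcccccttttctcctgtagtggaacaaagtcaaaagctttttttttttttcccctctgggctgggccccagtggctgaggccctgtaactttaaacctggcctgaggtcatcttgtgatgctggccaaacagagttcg
Clic5: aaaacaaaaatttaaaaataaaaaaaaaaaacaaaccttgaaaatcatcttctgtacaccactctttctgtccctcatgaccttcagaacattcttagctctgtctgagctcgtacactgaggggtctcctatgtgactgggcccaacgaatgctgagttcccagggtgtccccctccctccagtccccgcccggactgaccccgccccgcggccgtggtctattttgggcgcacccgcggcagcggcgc
Hopx: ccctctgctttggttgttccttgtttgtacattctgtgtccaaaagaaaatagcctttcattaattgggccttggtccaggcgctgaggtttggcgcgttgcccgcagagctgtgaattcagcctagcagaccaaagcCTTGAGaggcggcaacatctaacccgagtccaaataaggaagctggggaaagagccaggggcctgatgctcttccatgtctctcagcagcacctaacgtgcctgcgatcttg
The NKX2-1 letters stood in the Hopx window, 112 bases before the start, and in that of Spock2, 207 bases before the start. They stood in 13.3% of all 32851 promoter windows of this length. The TEAD and AP-1 letters, present in 12.6% and 6.75% of all windows, were found in none of the 9 windows of these genes, which says only that the letters are not in these bases.

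Changes were tested with edgeR's quasi-likelihood test in 1 fit of all genes and libraries, and a gene is called where its Benjamini-Hochberg adjusted p was under 0.05. Most of the type 1 genes were not called. In C/+ against WT 1 of 10 was called, Rtkn2, which was lower, against 3.92% of all tested genes (3.42% higher and 0.503% lower). In C/C against C/+ 3 of 10 were called, Rtkn2 and Gprc5a higher and Pdpn lower, against 7.08% of all tested genes (1.75% higher and 5.33% lower). In C/C against WT 2 of 10 were called, Gprc5a higher and Clic5 lower, against 2.98% of all tested genes (1.62% higher and 1.36% lower). Before adjustment, edgeR's p was under 0.05 for 3, 6 and 4 of 10, beside 20.1%, 20.9% and 22.1% of all tested genes, and DESeq2 called 2, 3 and 3 members, beside 8.52%, 10.8% and 9.86% of all tested genes. Libraries did not overlap between C/+ and WT for 2 of 10, both lower (24.8% of all tested genes, 10.7% lower). Between C/C and C/+ this held for 6 of 10, 3 higher and 3 lower (38.3% of all tested genes, 18.1% higher and 20.2% lower), and between C/C and WT for 4 of 10, 1 higher and 3 lower (43.3%, 20.8% higher and 22.6% lower). The comparisons share libraries, so their values are not independent of each other. The median log2 fold change of the 10 genes was -0.17, -0.02 and -0.40 in that order, beside 0.00, -0.01 and -0.03 for all tested genes. The log2 fold change was negative for 8, 5 and 9 of the 10 genes in that order. No direction was shared by all 10: values ran from -1.34 to 0.50, from -1.61 to 1.08 and from -1.43 to 0.60.

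**Figure D1:**
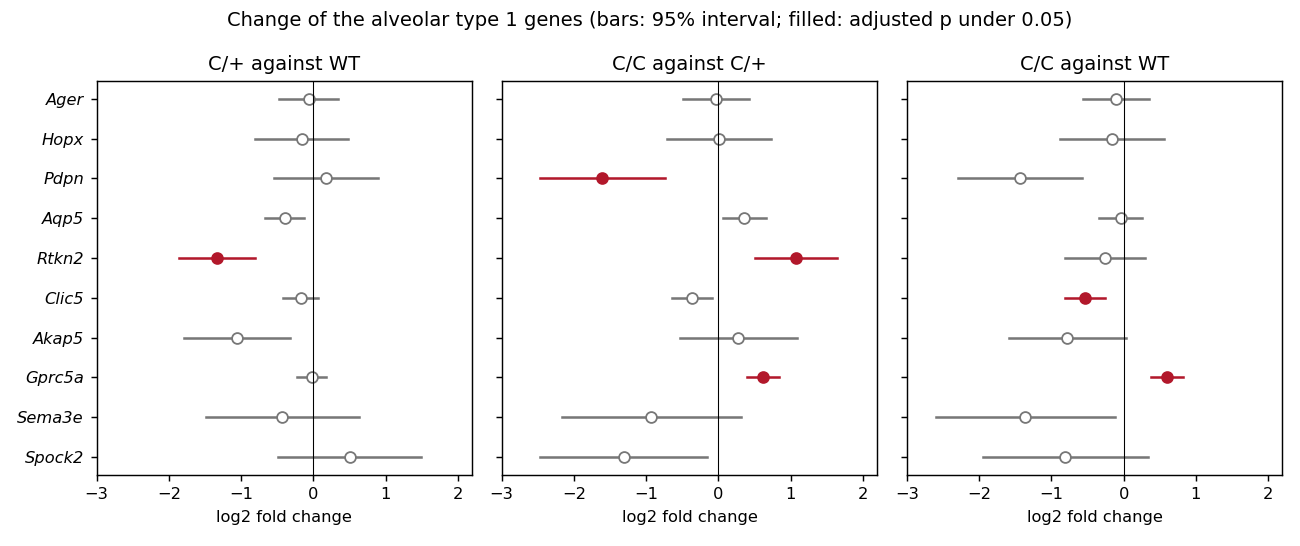
Log2 fold change of each gene (horizontal axis) in the 3 comparisons, with its 95% interval from the edgeR fit (bars); filled red points had an adjusted p under 0.05. Rtkn2 lay at -1.34 in C/+ against WT and at 1.08 in C/C against C/+, while the intervals of Ager and Hopx spanned 0 in each panel.

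The 10 genes were far from equal in abundance. Levels between genes are compared as CPM per kilobase of exon (RPKM). Ager was the most abundant at 798 ± 134 RPKM (SD, n = 8), with 57.8% to 70.03% of the summed RPKM of the 10 genes in each library. Gprc5a followed at 232 ± 50.9 RPKM and Aqp5 at 174 ± 27.5 RPKM. The ranges of this pair overlapped, although Gprc5a was the higher in 7 of 8 libraries. Hopx at 19.7 ± 5.46 RPKM and Clic5 at 9.84 ± 1.67 RPKM came next, with Hopx higher in 8 of 8 libraries. Pdpn stood at 4.01 ± 2.10 RPKM and Akap5 at 3.12 ± 1.59 RPKM, an order seen in 5 of 8 libraries, so these neighbours were not apart beyond their spread. Spock2 (1.15 ± 0.605 RPKM) and Rtkn2 (0.752 ± 0.324 RPKM) likewise changed places between libraries, with Spock2 higher in 5 of 8. Sema3e was lowest, at 0.360 ± 0.205 RPKM. For scale, the type 2 gene Sftpc was read at 135 to 219.8 times the RPKM of Ager in each library.

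**Figure D2:**
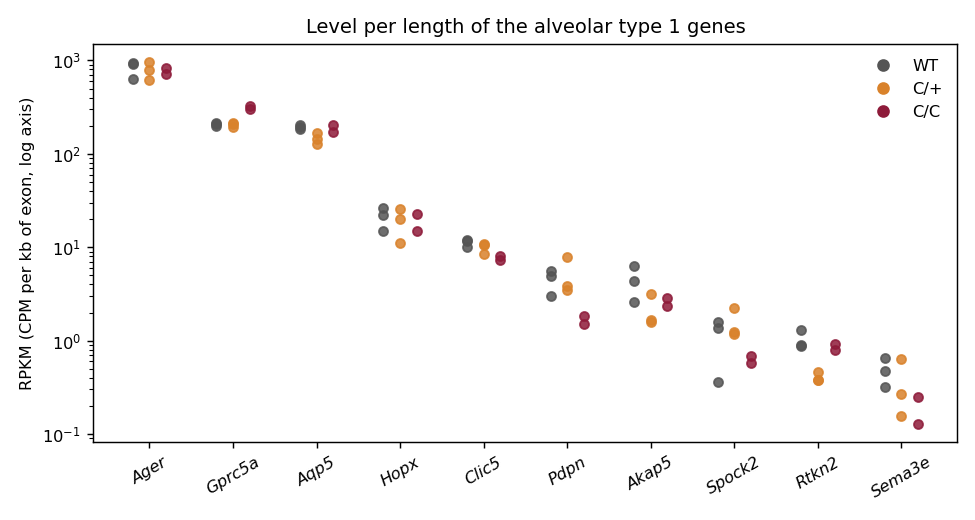
Level of each gene in RPKM (CPM per kb of exon, log axis), 1 point per library, coloured by group and ordered by the mean. Ager stood between 613 and 960.3 RPKM in every library, and Sema3e at the other end between 0.129 and 0.651 RPKM.

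The first group of members sits at the cell surface. Ager (ENSMUSG00000015452, chromosome 17, 34597862 to 34600936, plus strand of GRCm38) encodes RAGE, an immunoglobulin-family receptor that is exceptionally abundant on type 1 cells. Its level was 1358, 1943 and 2003 in WT 1 to 3, 2056, 1702 and 1312 in C/+ 1 to 3, and 1760.1 and 1541 CPM in C/C 1 and 2. The 3 groups overlapped, and the lowest and highest libraries were both C/+. Its log2 fold change was -0.07 in C/+ against WT (95% interval -0.47 to 0.34, edgeR adjusted p = 0.875), -0.03 in C/C against C/+ (-0.49 to 0.42) and -0.10 in C/C against WT (-0.56 to 0.36). None of these changes was called, and each interval holds changes in either direction.

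Pdpn (ENSMUSG00000028583, chromosome 4, 143267431 to 143299564, minus strand) encodes podoplanin, a mucin-type glycoprotein of the apical membrane. It was read at 5.48, 9.01 and 10.2 in WT 1 to 3, 14.4, 6.95 and 6.29 in C/+ 1 to 3, and 2.75 and 3.34 CPM in C/C. Both C/C libraries lay below all others, and C/+ 1 stood apart from the rest at the top. Pdpn fell in C/C against C/+ (log2 fold change -1.61, SE 0.39, edgeR adjusted p = 0.0331), with means of 9.20 ± 4.48 CPM (SD, n = 3) in the heterozygous and 3.04 ± 0.412 CPM (SD, n = 2) in the homozygous group. Against WT its log2 fold change of -1.43 was not called (SE 0.39, adjusted p = 0.072), although the libraries did not overlap, which held for 43.3% of all tested genes. This change was called in 6 of 15 alternative fits, among them DESeq2, no low-count filter and the compared groups alone. With sex as a covariate it was -0.75 (SE 0.22, edgeR adjusted p = 0.0572), and the change against C/+ was -1.18 (SE 0.20, adjusted p = 0.00475). Without C/+ 1 the change from C/+ to C/C was -1.12 (edgeR adjusted p = 0.0729). The call was also lost without WT 2 (adjusted p = 0.0531), C/C 1 (adjusted p = 0.275) or C/C 2 (adjusted p = 0.161). In female libraries alone, a choice made after the data were seen, it was -1.10 (edgeR adjusted p = 0.0314). The mesothelial and lymphatic lists, whose cells also make podoplanin, were highest in C/+ and lowest in C/C by the means of their sums. The lymphatic sum came mostly from Lyve1 (20.3 CPM in C/+) and Flt4 (7.71 CPM). Its other genes were under 1 CPM in every library. Of these, Prox1 had its highest mean in WT (0.151 CPM, against 0.0373 in C/+ and 0.0115 in C/C), and Mmrn1 and Reln had theirs in C/+. Between C/+ and WT 5 of 7 mesothelial genes were called higher (3.42% of all tested genes), and Pdpn was not called (log2 fold change 0.18, edgeR adjusted p = 0.804). Of 10 ciliated cell genes, 1 was called in C/C against C/+, lower (5.33% of all tested genes). Of the same 10, 7 were lower in both C/C libraries than in any C/+ library (20.2% of all tested genes). The list's median log2 fold change was -1.37. The part of these other cells in the change of Pdpn was not tested.

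Aqp5 (ENSMUSG00000044217, chromosome 15, 99590782 to 99594829, plus strand) encodes the water channel of the apical type 1 membrane. It was read at 475, 531 and 501 in WT 1 to 3, 437, 372 and 334 in C/+ 1 to 3, and 531 and 445 CPM in C/C. All C/+ libraries lay below all WT and C/C libraries, by little in the case of C/+ 1 and C/C 2. No change was called: the log2 fold change was -0.40 in C/+ against WT (SE 0.12, edgeR adjusted p = 0.101) and 0.36 in C/C against C/+ (SE 0.13, adjusted p = 0.16). The first was called by DESeq2 (adjusted p = 0.0234), and the second with sex as a covariate (edgeR adjusted p = 0.0426).

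Gprc5a (ENSMUSG00000046733, chromosome 6, 135065651 to 135084709, plus strand) encodes an orphan G protein-coupled receptor induced by retinoic acid. It held 431, 418 and 444 in WT 1 to 3, 400.4, 442 and 432 in C/+ 1 to 3, and 629 and 677 CPM in C/C. WT and C/+ were alike within a narrow spread, and both C/C libraries stood clear above them. Gprc5a rose in C/C against C/+ (log2 fold change 0.62, SE 0.10, edgeR adjusted p = 0.00516) and against WT (0.60, SE 0.10, adjusted p = 0.0194), a fold of 1.54 and 1.51. Between C/+ and WT its log2 fold change was -0.02 (95% interval -0.22 to 0.18). Leaving out C/C 1 or C/C 2 ended the call against C/+ (adjusted p = 0.051 and 0.0754) and against WT (0.138 and 0.205), with log2 fold changes of 0.55 to 0.68. Without WT 2 the call against WT was lost as well (edgeR adjusted p = 0.0913).

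**Figure D3:**
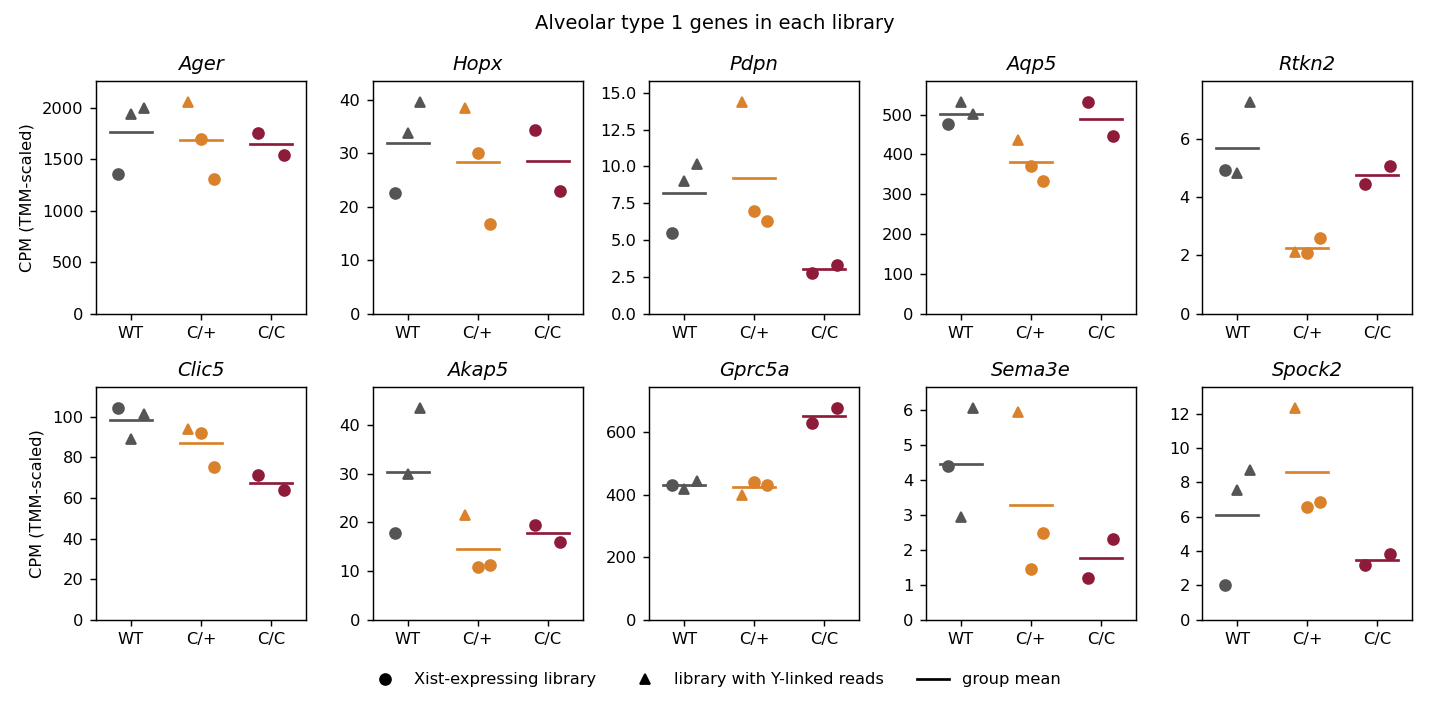
TMM-scaled CPM of each gene by group (vertical axis from 0), 1 point per library, with the group mean as a line; circles are libraries with Xist and triangles libraries with Y-linked reads. The C/C points of Gprc5a (629 and 677 CPM) lie above all others, those of Pdpn below all others, and the C/+ points of Rtkn2 (2.10 to 2.59 CPM) below all others.

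The second group acts inside the cell, on the cytoskeleton and on signalling. Rtkn2 (ENSMUSG00000037846, chromosome 10, 67979570 to 68059740, plus strand) encodes rhotekin 2. It was read at 4.94, 4.84 and 7.27 in WT 1 to 3, 2.12, 2.10 and 2.59 in C/+ 1 to 3, and 4.45 and 5.08 CPM in C/C. Every C/+ library lay well below every library of the other groups, and C/C fell within or just under the WT range. Rtkn2 fell in C/+ against WT, to 2.27 ± 0.276 CPM (SD, n = 3) against 5.68 ± 1.38 CPM (log2 fold change -1.34, SE 0.24, edgeR adjusted p = 0.0181), and was higher in C/C than in C/+, at 4.77 ± 0.446 CPM (1.08, SE 0.26, adjusted p = 0.0312). C/C against WT gave -0.26 (95% interval -0.82 to 0.30, adjusted p = 0.593). The counts behind these values were 44 to 391 per library, so counting error alone reached ±30.8% (95% Poisson interval) in the shallowest library. The C/+ call was lost without WT 3 (edgeR adjusted p = 0.0671), C/+ 1 (0.069) or C/+ 2 (0.0622), and the C/C call without C/+ 1 (0.0872), C/+ 2 (0.0963), C/C 1 (0.146) or C/C 2 (0.215). Over all fits that left out 1 library, log2 fold changes stayed between -1.44 and -1.11 for C/+ against WT and between 0.98 and 1.17 for C/C against C/+. In female libraries alone the second was 1.05 (adjusted p = 0.0665).

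Clic5 (ENSMUSG00000023959, chromosome 17, 44188584 to 44280172, plus strand) encodes a chloride intracellular channel protein that associates with ezrin and the actin cortex. Its level was 104, 89.2 and 101.5 in WT 1 to 3, 93.9, 92.3 and 75.2 in C/+ 1 to 3, and 71.4 and 63.9 CPM in C/C. WT and C/+ overlapped, and C/C lay below both, just under C/+ 3. Clic5 fell in C/C against WT, to 67.6 ± 5.31 CPM (SD, n = 2) against 98.3 ± 8.004 CPM (SD, n = 3; log2 fold change -0.54, SE 0.13, edgeR adjusted p = 0.0488). This call sat at the threshold: it was kept without C/+ 3 (adjusted p = 0.025), and lost without WT 1 (0.0645), WT 2 (0.0954), WT 3 (0.0992), C/+ 1 (0.0507), C/+ 2 (0.0675), C/C 1 (0.255) or C/C 2 (0.304). Against C/+ the log2 fold change of -0.37 was not called (SE 0.12, adjusted p = 0.12).

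Akap5 (ENSMUSG00000021057, chromosome 12, 76324891 to 76334153, plus strand) encodes a scaffold that anchors protein kinase A and calcineurin at the membrane. Its level was 17.8, 30.03 and 43.5 in WT 1 to 3, 21.5, 10.9 and 11.2 in C/+ 1 to 3, and 19.5 and 16.0 CPM in C/C. WT 1 lay with the reporter libraries and C/+ 1 above WT 1, so the groups overlapped. Its log2 fold change was -1.05 in C/+ against WT (SE 0.33, edgeR adjusted p = 0.106) and -0.78 in C/C against WT (SE 0.37, adjusted p = 0.243), neither called. With sex as a covariate the first was -0.73 and was called (edgeR adjusted p = 0.0167), and the second was -0.03 (adjusted p = 0.944). Akap5 in C/C against C/+ was 0.28 and not called (edgeR adjusted p = 0.74), and was called with sex as a covariate (0.70, adjusted p = 0.0323) and in female libraries alone (0.71, adjusted p = 0.0495).

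Hopx, the nuclear member (ENSMUSG00000059325, chromosome 5, 77086988 to 77115121, minus strand), encodes a small homeodomain protein that does not bind DNA. It was read at 22.5, 33.9 and 39.6 in WT 1 to 3, 38.5, 30.04 and 16.8 in C/+ 1 to 3, and 34.4 and 22.9 CPM in C/C. Each group held high and low libraries, and the log2 fold changes were -0.16, 0.00 and -0.16 in C/+ against WT, C/C against C/+ and C/C against WT (edgeR adjusted p = 0.796, 0.998 and 0.823). The antisense gene Hopxos, which overlaps it, had at most 9 counts in a library.

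The last group is secreted. Sema3e (ENSMUSG00000063531, chromosome 5, 14025276 to 14256689, plus strand) encodes a class 3 semaphorin whose receptor is plexin D1. It was read at 4.39, 2.94 and 6.04 in WT 1 to 3, 5.94, 1.45 and 2.47 in C/+ 1 to 3, and 1.19 and 2.32 CPM in C/C. Both C/C libraries lay below WT, and C/+ was spread over nearly the whole range. The log2 fold change of -1.36 in C/C against WT was not called (SE 0.56, edgeR adjusted p = 0.188), and counts of 31 to 325 gave counting intervals as wide as ±37.0%. Spock2 (ENSMUSG00000058297, chromosome 10, 60106219 to 60135198, plus strand) encodes testican 2, a proteoglycan of the extracellular matrix. It was read at 2.02, 7.54 and 8.74 in WT 1 to 3, 12.3, 6.58 and 6.88 in C/+ 1 to 3, and 3.17 and 3.81 CPM in C/C. C/C lay below C/+, and WT 1 lay below C/C. The log2 fold changes of 0.50 in C/+ against WT (SE 0.45, edgeR adjusted p = 0.576) and -1.31 in C/C against C/+ (SE 0.52, adjusted p = 0.18) were not called. With sex as a covariate the first was 1.12 and was called (edgeR adjusted p = 0.0232).

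The members differed in how much they varied between libraries of 1 group. Gprc5a varied least, with a coefficient of variation of 2.99%, 5.07% and 5.20% in WT, C/+ and C/C, and Clic5 had 8.14%, 11.9% and 7.85%. Spock2 reached 58.8% in WT, Sema3e 71.7% in C/+ and Akap5 42.3% and 41.6% in these groups. The biological coefficient of variation fitted by edgeR was 10.2% for Gprc5a and 41.6% for Sema3e, against a median of 15.5% over all tested genes. Within WT, WT 3 was the highest library for 8 of the 10 genes and WT 1 the lowest for 6. Within C/+, C/+ 1 was the highest for 8, and the lowest was C/+ 3 for 5 and C/+ 2 for 4. The 9 ciliated genes without Tppp3 also summed highest in WT 3 within WT and in C/+ 1 within C/+, at 61.1 and 66.6 CPM.

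**Figure D4:**
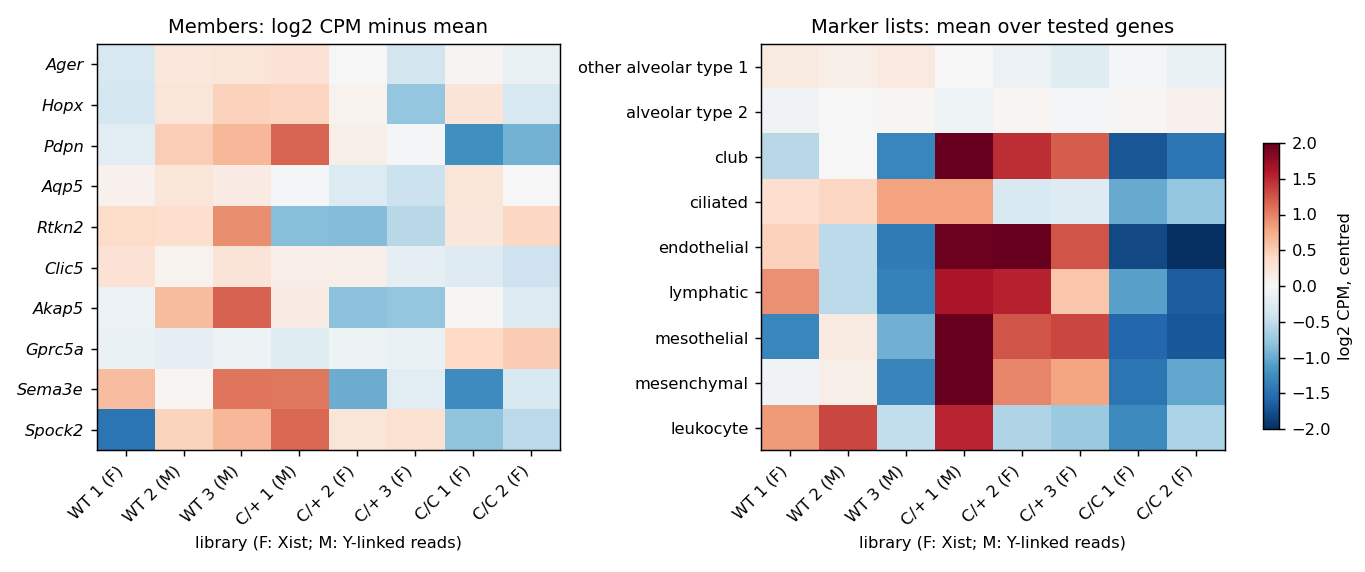
Left, log2 CPM of each gene, without a prior count, minus its mean over the 8 libraries. Right, log2 CPM with a prior count of 2, centred likewise and averaged over the tested genes of each marker list. Colours run from -2 to 2 and saturate beyond. On the left, WT 3 and C/+ 1 are each the highest of their group for 8 of 10 genes, and on the right the club, endothelial and mesothelial lists are highest in the C/+ libraries.

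The male libraries WT 2, WT 3 and C/+ 1 held the highest levels of several type 1 genes, a pattern known from earlier results of these data. Ager stood at 1943 to 2056 CPM in the 3 male libraries and at 1312 to 1760.1 CPM in the 5 female ones, without overlap. Pdpn (9.01 to 14.4 against 2.75 to 6.95 CPM), Akap5 (21.5 to 43.5 against 10.9 to 19.5 CPM) and Spock2 (7.54 to 12.3 against 2.02 to 6.88 CPM) were also higher in every male library than in any female one. Such separation, 4 of these 10 genes, was seen in 2.98% of all 14906 tested genes (5.88% with those lower in every male library). The male and female ranges of Hopx and of Aqp5 overlapped, but both genes were higher in the male libraries within WT and within C/+. This order within both groups held for 6 of the 10 genes, for 6 of 25 other type 1 genes and for 17.4% of all tested genes.

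In the fit with group and sex, the male minus female log2 difference was positive for 9 of the 10 genes, with a median of 0.60 beside 0.08 for the other type 1 genes and -0.01 for all tested genes. It was 1.41 for Spock2 (SE 0.26, edgeR adjusted p = 0.0613), 1.01 for Akap5 (SE 0.16, adjusted p = 0.0498), 0.96 for Pdpn (SE 0.17, adjusted p = 0.0612), 0.71 for Hopx (SE 0.21, adjusted p = 0.16) and 0.49 for Ager (SE 0.12, adjusted p = 0.0987). Akap5 was 1 of 18 genes called by this term, 0.121% of all tested (0.0604% higher in male libraries). Rtkn2 (0.11), Clic5 (0.02) and Gprc5a (-0.06) had small differences. WT held 1 female library and C/+ 1 male library, and C/C held no male library, so sex and whatever else set single libraries apart cannot be told apart here. The 9 ciliated genes without Tppp3 summed to 46.8 to 66.6 CPM in the male libraries and 14.0 to 49.3 CPM in the female ones. With Tppp3 the sums were 183 to 255 CPM in the male libraries and 107 to 158 CPM in the female ones, without overlap. The part of the ciliated genes in the pattern was not tested.

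Likeness between genes was measured as the root mean square difference of centred log2 CPM over the 8 libraries, where 0 means the same profile. Among the 10 genes, Ager and Hopx were the closest pair (0.20), followed by Ager and Aqp5 (0.22) and Ager and Clic5 (0.28). Rtkn2 and Spock2 were farthest apart (1.18), with Rtkn2 and Pdpn next (1.08). Of 9751 genes compared with Rtkn2, the nearest was Ndnf (0.31), itself on the list of other type 1 genes, followed by the clock repressor gene Cry1 (0.35), Nebl (0.36), Nr6a1 and Slc6a15 (0.37 each). The genes nearest Pdpn were Lrrc23 (0.28), Cyp2s1 (0.29), Id1, Cfap65 and Ccdc153, of which Lrrc23, Cfap65 and Ccdc153 belong to motile cilia. Gprc5a was nearest to Tuba4a (0.05), with Wdr46, Fhdc1, Wdr81 and Cdk2ap2 next. Ager was nearest to Svip (0.03), Gatd1 (0.06), Ap1s1, Uap1l1 and Slc35a1, and Clic5 to Rad54l2, Sema4c, Nek9, Phf20 and Dstyk (0.08 to 0.09). Both members varied little themselves, with a root mean square spread around their own mean of 0.23 and 0.24. These values describe 8 libraries that differ in group, sex and depth.

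A list of 25 other genes of type 1 cells was read beside the 10, all of them tested. In C/+ against WT 1 was called higher and 1 lower (3.42% and 0.503% of all tested genes), and the median log2 fold change was -0.23. In C/C against C/+ 2 were called, both lower (5.33% of all tested genes), and the median was 0.17. In C/C against WT 1 was called, lower (1.36%), and the median was -0.18. Cav1, encoding caveolin 1, had 29.1 ± 6.91 (WT), 110.0 ± 38.6 (C/+) and 16.3 ± 0.332 CPM (C/C). It rose in C/+ against WT (log2 fold change 1.92, edgeR adjusted p = 0.00977) and fell in C/C against C/+ (-2.76, adjusted p = 0.00119). The endothelial list had 10 of 12 genes called higher and 11 of 12 called lower in these comparisons (3.42% and 5.33% of all tested genes). The part of this list in the change of Cav1, or of Pmp22 below, was not tested. Ndnf, a neuron-derived neurotrophic factor gene, had 74.04 ± 14.5 (WT), 37.9 ± 3.40 (C/+) and 57.2 ± 6.76 CPM (C/C). It fell in C/+ against WT (-0.97, adjusted p = 0.0116), and its value of 0.60 in C/C against C/+ was not called (adjusted p = 0.0536). Pmp22, a tetraspan membrane protein gene, fell between C/+ (36.3 ± 12.2 CPM) and C/C (17.7 ± 3.21 CPM; -1.04, adjusted p = 0.0296). Agrn, encoding the basement membrane proteoglycan agrin, was lower in C/C (101.5 ± 0.349 CPM) than in WT (157 ± 11.5 CPM; -0.63, adjusted p = 0.0241). Among them, 22, 10 and 19 of 25 had a negative log2 fold change in C/+ against WT, C/C against C/+ and C/C against WT. The median over all tested genes was 0.00, -0.01 and -0.03 in that order. An unadjusted edgeR p under 0.05 was found for 12, 8 and 10 of 25, against 20.1%, 20.9% and 22.1% of all tested genes.

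The Hippo pathway restrains YAP and TAZ, and its core was read as 13 genes, all tested. Tead2, encoding a TEAD factor, was higher in C/+ (5.75 ± 0.108 CPM) than in WT (2.42 ± 0.812 CPM; log2 fold change 1.26, edgeR adjusted p = 0.0315). In that comparison 5 of 13 had an unadjusted p under 0.05, beside 20.1% of all tested genes. DESeq2 called 3 of 13 (8.52% of all tested genes), against 1 by edgeR (3.92%). Besides Tead2, the 5 were Yap1 (-0.26), Tead1 (-0.46), Tead3 (-0.23) and Nf2 (-0.35), all lower in C/+ and not called by edgeR. The endothelial list was also highest in C/+, and its part in the change of Tead2 was not tested. In each of the other comparisons edgeR called 0 of 13 (1 before adjustment of p, and 0 by DESeq2). Of 8 target genes of YAP and TAZ, 7 were tested and 2 were called in C/C against C/+, both lower (5.33% of all tested genes). Amotl1, a junction protein gene, had 66.1 ± 3.19 (C/+) and 45.7 ± 0.922 CPM (C/C; -0.53, adjusted p = 0.00886), and Crim1, a transmembrane regulator of growth factors, had 16.5 ± 4.43 CPM and 6.47 ± 1.11 CPM (-1.35, adjusted p = 0.00698). The endothelial list fell in the same comparison, and its part in these changes was not tested. Of these targets edgeR called 0 of 7 in C/+ against WT, where 2 had an unadjusted p under 0.05 and DESeq2 called 0. In C/C against WT edgeR called 0 of 7 as well. There 3 had an unadjusted p under 0.05 (22.1% of all tested genes), and DESeq2 called 3 (9.86%).

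Genes whose products bind or act with the members were read as a further list, with 16 of 18 tested. Ezr, encoding ezrin, which links podoplanin and CLIC5 to actin, was higher in C/C (640.0 ± 25.3 CPM) than in C/+ (463 ± 30.3 CPM; log2 fold change 0.47, edgeR adjusted p = 0.0235). Plxnd1, encoding the SEMA3E receptor, fell in the same comparison, with 14.6 ± 1.14 CPM against 29.6 ± 6.14 CPM (-1.02, adjusted p = 0.00635). The endothelial list, with 11 of 12 genes called lower there (5.33% of all tested genes) and a median of -4.26, moved with Plxnd1. The part of this list was not tested.

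Relatives of the members in the same gene families were read as well. Of 21 paralogs 18 were tested. In C/+ against WT 5 were called, all higher (3.42% of all tested genes), and in C/C against C/+ 7, all lower (5.33%). In C/C against WT edgeR called 0. There 10 had an unadjusted p under 0.05 (22.1% of all tested genes), and DESeq2 called 3 (9.86%). Aqp1, an aquaporin of endothelium, had 28.3 ± 14.6 (WT), 152.9 ± 51.97 (C/+) and 10.2 ± 0.0327 CPM (C/C). It rose in C/+ against WT (log2 fold change 2.44, edgeR adjusted p = 0.0116) and fell in C/C against C/+ (-3.91, adjusted p = 0.00153), beside -0.40 and 0.36 for Aqp5, neither called. The semaphorin genes Sema3c, Sema3f and Sema3g had log2 fold changes of 1.68, 1.59 and 2.35 in C/+ against WT (largest edgeR adjusted p = 0.035) and -2.48, -2.38 and -4.18 in C/C against C/+ (largest adjusted p = 0.00533). Akap12 rose and fell likewise (2.38 and -3.18, adjusted p = 0.0342 and 0.0133), and Aqp4, under 2 CPM in every library, fell in C/C against C/+ (-2.96, adjusted p = 0.0294). The endothelial list moved in the same directions, and its part in these changes was not tested, nor was the difference between members and paralogs.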

How the data were processed

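Gene expression was measured by stranded mRNA sequencing of sorted mouse lung cells, per the labels' protocols. The authors deposited whole-number counts per Ensembl gene, not normalised. The submitters' processing notes name STAR 2.4.2a, DESeq2 and the human build GRCh38 without roles, although the gene identifiers are of mouse. The counting tool and its strand setting are not stated in these sources, so overlapping genes may share reads. Columns were matched to samples by name, w standing for the wild-type allele. Symbols, positions and exon lengths came from GENCODE M21 (GRCm38), which named 42548 of 43432 identifiers.

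Genes were filtered with filterByExpr (14906 left) and scaled by TMM (factors 0.915 to 1.06). One edgeR 4.0.16 quasi-likelihood model in R 4.3.3, with a mean per group and no block, was fitted to all 8 libraries, checked on simulated data. P-values are two-sided and adjusted over all tested genes. Log2 CPM for likeness used a prior count of 2, and likeness was read for genes averaging 5 CPM or more. RPKM are CPM divided by the length in kb of the union of exons. The sex of a library is that shown by its Xist and Y-linked reads, as no label states it. Libraries of 1 group differed by more than sampling noise in every pair (a chi-square of 12.2 to 73.5 on average over genes). The members, lists and alternatives were chosen with earlier results of these data known. Named genes are the 10 members, Ager's and the called members' 5 nearest genes, and the called genes of each list, up to the 6 most abundant. One called gene of the list of interacting genes is not reported here. Alternatives were DESeq2 size factors, DESeq2 1.42.0, 2 other filters, the compared groups alone, sex as a covariate, a replicate block and leaving out each library. Female libraries alone were added after the data were seen.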

Additional observations from a re-analysis of the deposited data

How the results depend on the processing

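Every call named for a member kept its direction in all 15 or 16 alternatives run for it, and Gprc5a in C/C against C/+ kept its call in 14 of 16, Rtkn2 in 12 of 15 for C/+ against WT and 11 of 16 for C/C against C/+, Pdpn in 11 of 16, Gprc5a against WT in 11 of 15 and Clic5 in 7 of 15. The number of members called in C/+ against WT, 1, was 2 by DESeq2, 3 without a low-count filter and 3 with sex as a covariate. In C/C against C/+, 3, it was 5 with sex as a covariate, and in C/C against WT, 2, it was 5 without a low-count filter. Calls over all tested genes grew as well. In C/+ against WT 510 higher and 75 lower became 916 and 354, 944 and 355, and 1047 and 653 under these settings. In C/C against C/+ 261 and 795 became 380 and 820, and in C/C against WT 241 and 203 became 607 and 849. The fit without a low-count filter tested 22726 genes, the others 14906. Leaving out 1 library gave 0 to 2, 0 to 4 and 0 to 3 members. In these edgeR fits no member was called in C/+ against WT without WT 3, C/+ 1 or C/+ 2, in C/C against C/+ without C/C 1 or C/C 2 (which leaves 1 library, assumed to vary like the other groups), or in C/C against WT without WT 2, C/C 1 or C/C 2.

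Other type 1 genes called numbered 2, 2 and 1 in these comparisons. DESeq2 called 5, 7 and 6, the fit without a low-count filter 10, 8 and 7, and the fit with sex as a covariate 8, 4 and 4. With the compared groups alone there were 5 in C/C against C/+ and 3 in C/C against WT, and a filter of 1 CPM in 5 libraries gave 2 in C/C against WT. Leaving out 1 library gave 1 to 3, 1 to 6 and 0 to 4. Over all tested genes the calls were 585, 1056 and 444, and 1270, 1609 and 1470 by DESeq2 and 1299, 1614 and 1456 without a low-count filter. They were 1700 and 1348 for the comparisons with WT with sex as a covariate, 356 in C/+ against WT with the compared groups alone, and 103 to 729, 185 to 1308 and 30 to 782 with 1 library left out. The share called higher was 87.2%, 24.7% and 54.3%. In C/+ against WT it was 72.1% by DESeq2, 72.7% without a low-count filter and 61.6% with sex as a covariate, and in C/C against WT 45.9%, 41.7% and 47.4% under these, so that the larger share turned from higher to lower. Leaving out 1 library gave 82.9% to 95.1%, 15.4% to 28.1% and 44.1% to 87.9%, the last extreme without C/C 2, and C/C against C/+ stayed mostly lower in every alternative, with 31.7% higher at most (sex as a covariate).

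The labels do not say that the numbers pair libraries, so they were not taken as pairs. Correlations between the deviations of same-numbered libraries from their group means ran from -0.21 to 0.09. They cannot settle whether libraries were paired. The 2 C/C libraries deviate as mirror images of each other, and the same-numbered WT and C/+ libraries differed in sex. With the replicate block edgeR called 0 members (3 at an unadjusted p under 0.05, against 2 called without it) and 176 genes in C/C against WT, 41.5% of them higher, with Gprc5a at adjusted p = 0.0586 and Clic5 at 0.0836. The block also ended the call of Pdpn in C/C against C/+ (adjusted p = 0.0964).

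Sign changes were confined to log2 fold changes that were not called. With sex as a covariate they were 0.10 (Ager) and 0.064 (Hopx) in C/+ against WT, 0.15 (Ager) in C/C against C/+, and 0.25 (Ager), 0.35 (Hopx), 0.10 (Aqp5) and 0.34 (Spock2) in C/C against WT. Hopx in C/C against C/+ was -0.028 with a filter of 1 CPM in 5 libraries and -0.044 with the replicate block, and Ager was 0.15 in female libraries alone. Signs also changed when 1 library was left out: in C/+ against WT, where Ager ran from -0.23 to 0.087, Hopx from -0.45 to 0.10, Pdpn from -0.31 to 0.38 and Gprc5a from -0.058 to 0.019, in C/C against C/+, where Ager ran from -0.19 to 0.13 and Hopx from -0.32 to 0.29, and in C/C against WT, where Hopx ran from -0.48 to 0.11 and Aqp5 from -0.17 to 0.080. The cause of these changes was not tested. Rtkn2, Sema3e and Spock2, with as few as 44, 31 and 78 counts in a library, had the widest counting intervals among the members (±30.8%, ±37.0% and ±22.9%).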
